A study of Sus scrofa with 12 samples.

Results

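Transcript levels in the semimembranosus muscle of pigs at 24 h after death were compared with those at 2 h in the same animals. The comparison used every array titled as taken at T3 (24 h) and every array titled as taken at T1 (2 h), which are 6 of the 12 arrays of the series, with 3 pigs at each time, and it covered all 23999 probe sets that are not array controls. The pigs were 3 females of a commercial hybrid, weighing about 160 kg each, from 1 farm and 1 abattoir, stunned with CO2 at 87%. Both groups are untreated muscle of the left leg. A portion of 3 to 5 g was cut at 2 h and another at the same position at 24 h while the carcass passed through the cold chain to 4 °C, so that time, chilling and earlier cutting at that position cannot be told apart. Each portion was snap frozen and hybridised to its own Affymetrix porcine array. The other 6 arrays, taken at 20 min and 6 h from the same pigs, entered the comparison only through the estimate of the spread, and that choice decided whether any probe set passed. No living muscle was sampled, so 2 h is an early time after death and not a resting control.

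After slaughter, muscle loses its blood supply but not all of its biochemistry at once: the fibres run on glycogen and creatine phosphate until ATP is spent, acid builds up, calcium leaks and rigor sets in, after which proteases such as the calpains begin to loosen the myofibrils. Transcription needs ATP, whereas RNA decay can go on without new synthesis, so the transcripts of a carcass are a mixture of what was present at death, what was still made and what was lost. Muscle also holds resident macrophages, endothelium, fibroblasts, fat cells, nerve and blood, and a change in an array value of whole tissue cannot tell fewer cells of a type apart from less RNA per cell.

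The tissue matched its label. The 19 skeletal muscle markers lay at percentiles 99.3 to 99.95 of probe set levels, and their mean was 14.01 to 14.05 log2 units on every array. The values are log2 intensities with nearly the same distribution on all arrays, so a loss of all transcripts alike would not show. The array medians were 5.89 to 5.94, and the 6 arrays correlated with each other across probe sets with r between 0.989 and 0.996. All changes below are log2 differences of 24 h minus 2 h within a pig, averaged over the 3 pigs, and levels are compared only within a probe set.

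Between 2 h and 24 h the muscle transcriptome stayed within narrow limits. The fit of all 12 arrays called 0 of 23999 probe sets (limma with pig as a block, Benjamini-Hochberg adjusted p under 0.05; percent called 0), and the smallest limma adjusted p was 0.869. At an unadjusted p under 0.05 there were 1255 probe sets, or 5.23% of those tested, against a mean of 1199.95 that such a threshold gives when nothing differs. Of these, 571 (2.38%) had the higher mean at 24 h and 684 (2.85%) the lower mean. The median size of the change was 0.075, and 95% of the probe sets differed by less than 0.253. For 99.7% of the probe sets a change beyond 2-fold, and for 96.2% one beyond 1.5-fold, was outside the 95% interval. The largest mean differences were towards lower levels: 7 probe sets differed by more than 2-fold, all with the lower mean at 24 h. Beyond 1.5-fold there were 37 lower probe sets (0.154%) and 7 higher (0.0292%), and 32 of the 37 were lower in every pig.

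**Figure D1:**
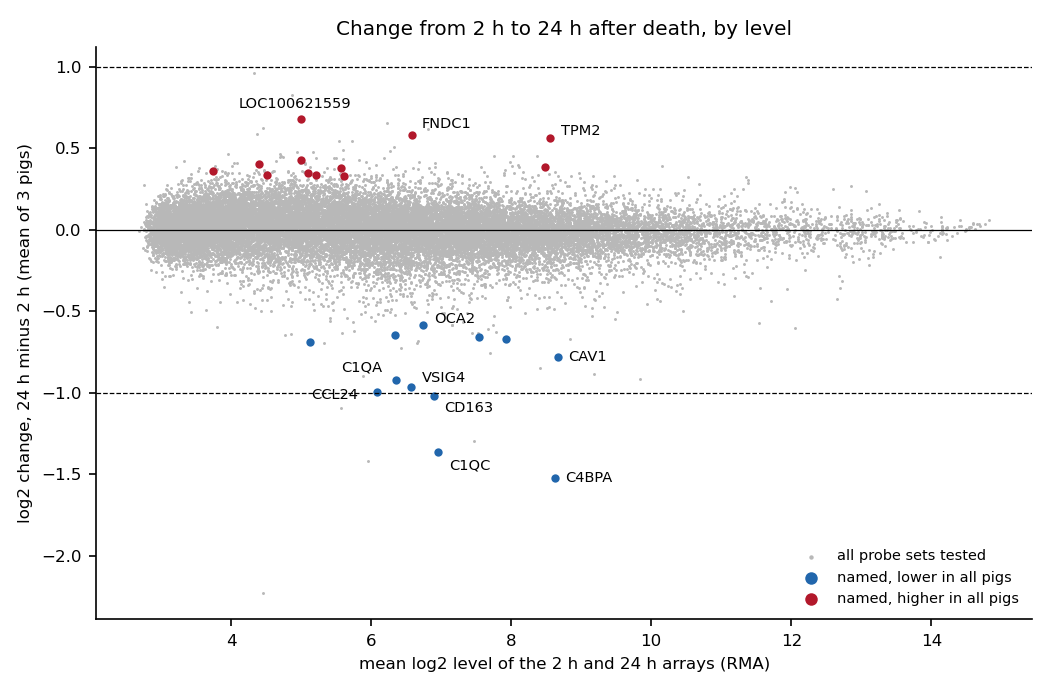
Each point is 1 of the 23999 probe sets, with its mean log2 level over the 2 h and 24 h arrays on the horizontal axis and its mean log2 change from 2 h to 24 h in the 3 pigs on the vertical axis; named genes are marked. The cloud lies close to 0 at all levels and the 7 probe sets beyond 2-fold all lie below it.

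The pigs agreed little over the whole array. The changes of pig 1 and pig 3 correlated across probe sets with r = 0.262, those of pigs 1 and 2 with r = -0.016 and those of pigs 2 and 3 with r = -0.115; these are descriptions across probe sets, which are not independent, and the changes share the RMA scaling. In all, 3347 probe sets (13.9%) were higher at 24 h in every pig, 2840 (11.8%) were lower in every pig, and 17812 (74.2%) differed in direction. All 3 values at 24 h lay above all 3 at 2 h for 1079 probe sets (4.5%) and below them for 628 (2.62%). Pig 3 had the most changes beyond 2-fold, 13 higher and 48 lower, against 6 and 9 in pig 1 and 6 and 27 in pig 2. Reduced to the brightest probe set of each of 6765 genes, 3302 genes (48.8%) had the higher mean at 24 h and 3463 (51.2%) the lower; 838 (12.4%) were higher and 983 (14.5%) lower in every pig, 309 (4.57%) had an unadjusted p under 0.05, and the groups did not overlap for 235 genes (3.47%) above and 157 (2.32%) below. These are the shares against which the gene lists below are read.

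Of the 7 probe sets beyond 2-fold, those with a gene name lower in every pig were C4BPA, C1QC and CD163, genes of the complement system and of tissue macrophages. Complement component C1q, built from the products of C1QA, C1QB and C1QC, opens the classical complement cascade and is made largely by macrophages. C1QC read 8.13, 7.45 and 7.34 in pigs 1, 2 and 3 at 2 h and 6.77, 6.25 and 5.81 at 24 h. All 3 values at 24 h were below all 3 at 2 h. The change was -1.37 ± 0.17 (SD, n = 3 pigs), a mean 2.58-fold lower level, with a 95% interval of -2.06 to -0.67 and a limma adjusted p of 0.938 in the fit of 12 arrays. C1QA was 7.09, 6.63 and 6.72 at 2 h and 6.12, 5.95 and 5.60 at 24 h. The groups again did not overlap, and the change was -0.92 ± 0.23 (SD, n = 3 pigs).

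Several receptors of the macrophage list had the same direction, while the brighter CD14 probe set had the higher mean (0.26). VSIG4, the complement receptor of tissue macrophages, was 7.69, 6.85 and 6.62 at 2 h and 6.48, 6.05 and 5.74 at 24 h, below in every pig and without overlap, a change of -0.96 ± 0.22 (SD, n = 3 pigs). VSIG4 also has a pair of dimmer probe sets, with -0.20 (lower in every pig) and -0.09 (mixed). CD163, the scavenger receptor for haemoglobin bound to haptoglobin, was 7.92, 7.51 and 6.79 at 2 h and 6.98, 6.60 and 5.59 at 24 h. It was lower in every pig, but the 24 h value of pig 1 exceeded the 2 h value of pig 3, so the groups overlapped; the change was -1.02 ± 0.16 (SD, n = 3 pigs). A second, dim CD163 probe set had a mixed change of 0.29. MRC1, the mannose receptor, was 6.42, 6.04 and 5.64 at 2 h and 5.83, 5.67 and 4.89 at 24 h, lower in every pig with overlapping groups. Its 95% interval was -1.19 to 0.06. The Fcγ receptor FCGR3A had a mean change of -0.51 without overlap between the groups, and 0.11 (mixed) at a dim second probe set. MRC1 and FCGR3A were named after their values were seen.

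A pair of secreted factors completed the leading genes. CCL24, an eosinophil-attracting chemokine, was 6.78, 6.68 and 6.30 at 2 h and 5.91, 5.66 and 5.20 at 24 h, below in every pig and without overlap, a change of -0.998 ± 0.11 (SD, n = 3 pigs). C4BPA, the alpha chain of the C4b-binding protein that restrains the classical pathway, was 9.90, 8.96 and 9.30 at 2 h and 8.78, 7.71 and 7.09 at 24 h. Pig 3 had the largest difference, the groups did not overlap, and the change was -1.53 ± 0.60 (SD, n = 3 pigs), a 2.88-fold lower mean with a 95% interval of -2.46 to -0.59. Without the 24 h array of pig 3 the change of C4BPA was -0.98.

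The 20 min arrays decided the test of these genes. The 20 min array of pig 3 was higher than all the other 11 arrays for each of the 6 genes C1QC, C1QA, VSIG4, CD163, CCL24 and C4BPA; for C1QC it read 8.77 against 7.74 and 7.21 in the other pigs at that time. The fit of 12 arrays has a term for each pig and each time. It counts as spread the departure of that array from the level these terms give. Without the 20 min arrays, 9 arrays remained and the limma fit called 6 probe sets, all lower at 24 h. These were C1QC (adjusted p = 0.00116), VSIG4 (0.0307), CCL24, C1QA and C4BPA (0.0444 each) and the unnamed probe set Ssc.11004.1.S1_at (0.0193), with a change of -1.30. CD163 stayed outside with a limma adjusted p of 0.108. With only the 20 min array of pig 3 left out, a setting chosen after the data were seen, limma called 5, C1QC (2.19e-04), C1QA (0.0320), VSIG4 and C4BPA (0.0349 each) and Ssc.11004.1.S1_at (0.00473), while CCL24 was at 0.280 and CD163 at 0.0535. With only the 6 arrays of 2 h and 24 h, limma called C1QC alone (adjusted p = 0.0292). The mean changes of these genes are the same in these fits, and the SE of C1QC was 0.317 with 12 arrays, 0.0912 with 11, 0.0937 with 9 and 0.0978 with 6.

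The lower levels were seen at 24 h and not at 6 h. The 6 genes had means 0.09 to 0.21 higher at 6 h than at 2 h, and changes of -1.63 to -1.07 from 6 h to 24 h. C1QC, for example, was 8.16, 7.63 and 7.51 at 6 h. In all 18 pairs of gene and pig the 24 h value was below the 6 h value. It was below the 2 h value in all 18 too, which the naming rule required of these genes. Both counts use the same 24 h arrays, so neither is separate support. Nothing passed for 6 h against 2 h, where limma called 0 probe sets (percent called 0) with a smallest adjusted p of 1.00 and 542 probe sets at an unadjusted p under 0.05.

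**Figure D2:**
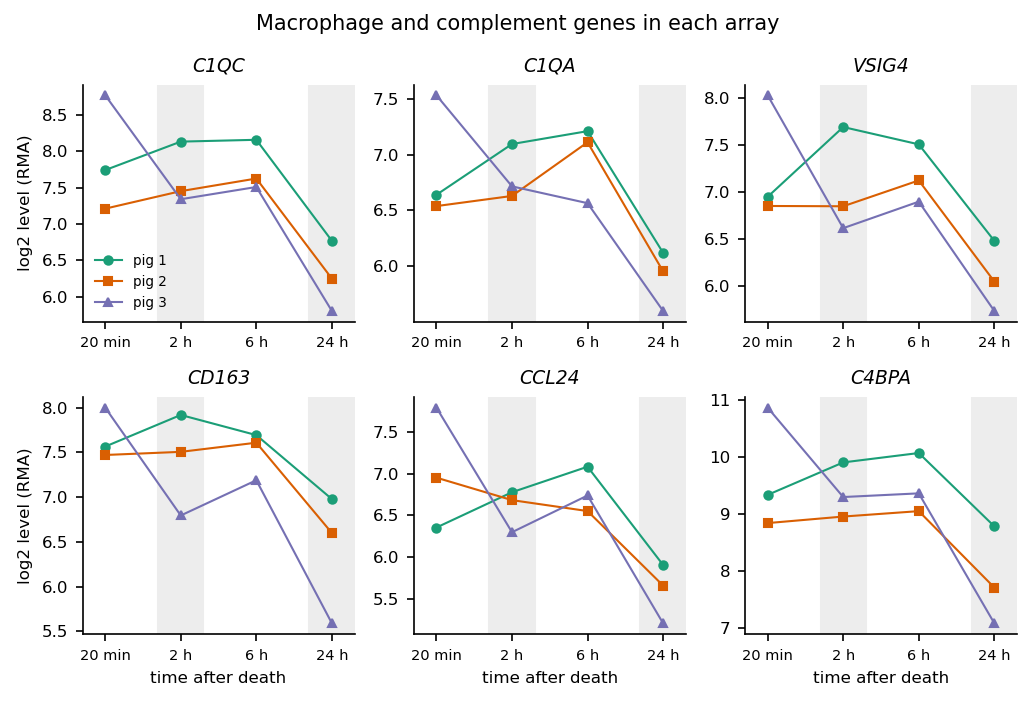
Log2 levels of C1QC, C1QA, VSIG4, CD163, CCL24 and C4BPA (vertical axes) at 20 min, 2 h, 6 h and 24 h (horizontal axes), 1 line per pig. In every panel each pig's value at 24 h lies below its values at 2 h and 6 h, and the 20 min value of pig 3 is the highest of the 12. The genes were chosen as lower at 24 h than at 2 h in every pig.

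Not all leukocyte genes had lower means. Of the 27 listed macrophage and leukocyte markers 21 were on the array; 14 had the lower mean at 24 h, 9 of them in every pig, and 7 the higher, 5 of them in every pig. The groups did not overlap for 4 below and 2 above. The median change was -0.20, against 0.00 over all genes, and the mean was -0.31, -0.12 and -0.42 in pigs 1, 2 and 3. Genes that were higher in mean included CD14, the lipopolysaccharide co-receptor (0.26, without overlap), and the T-cell genes CD4 (0.18, without overlap) and CD3E (0.16). PTPRC, the pan-leukocyte phosphatase CD45, had a mean change of 0.15, with 0.13, 0.13 and 0.19 in the 3 pigs. These 4 probe sets are dim, with means of 3.94 to 5.55 at 2 h, and a second CD14 probe set was lower in every pig (-0.21). CD74, the invariant chain of MHC class II and the brightest gene of the list, had a mixed change of -0.29. Beyond the list, and named after their values were seen, the inhibitory Fcγ receptor FCGR2B (-0.73), the tetraspanin CD53 (-0.69) and SRGN, the proteoglycan of leukocyte granules (-0.76), were lower in every pig. CD53 had -0.47 and a mixed 0.24 at its other probe sets.

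Markers of other cell types differed less in mean. The mean of the 18 endothelial markers changed by 0.04, 0.10 and -0.24 in pigs 1, 2 and 3, that of the 29 matrix and fibroblast markers by -0.02, 0.12 and -0.10, and that of the 13 smooth muscle and pericyte markers by -0.02, 0.15 and -0.13. Each was lower in pig 3 and higher in pig 2. Whether a shift in the makeup of the portions had a part in the macrophage genes was not tested. Of the endothelial markers 14 of 18 had the lower mean, 1 of them in every pig. Decorin (DCN), a small matrix proteoglycan, was 0.12, 0.42 and 0.23 higher in the 3 pigs, tenascin C (TNC) had a mean change of -0.38, and SPARC, the brightest matrix gene, 0.01. CLDN5, the endothelial tight junction claudin, had a mixed change of -0.23 and LYVE1, the lymphatic hyaluronan receptor, one of 0.14. TAGLN, the smooth muscle transgelin, had -0.23 MYLK, the myosin light chain kinase, 0.15 and desmin (DES) 0.01. Among 7 nerve markers MBP, the myelin basic protein, was 9.21, 8.31 and 7.98 at 2 h and 9.29, 8.55 and 8.65 at 24 h, higher in every pig, mostly in pig 3, and CHRNA1, the muscle acetylcholine receptor, had the lowest change (-0.11). The 5 blood markers stayed between -0.13 (PPBP, a platelet chemokine) and 0.13 (AHSP, a haemoglobin chaperone), with HBB, the beta globin, at -0.06. The mean of the blood list was -0.00 and turned sign under centring of the arrays on the brightest 10% of probe sets.

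The immediate early regulators, the transcription factors switched on within minutes of a stimulus, had mostly lower means at 24 h, with large differences between pigs. Of 28 listed genes 18 were measured; 14 had the lower mean, 5 of them in every pig, and 4 the higher, with 3 lower at an unadjusted p under 0.05 and the groups overlapped for every gene. The mean change of the list was -0.22, 0.01 and -0.51 in pigs 1, 2 and 3. ATF3, a stress-induced repressor, was 7.95, 11.18 and 11.78 at 2 h and 6.90, 11.12 and 10.14 at 24 h. Pigs 1 and 3 carried the difference, pig 2 was nearly level, and pig 1 was the lowest at both times, so that the groups overlapped. The change was -0.92 ± 0.80 (SD, n = 3 pigs; limma adjusted p = 0.938).

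NR4A3, an orphan nuclear receptor induced by contraction, was 9.78, 8.74 and 10.35 at 2 h and 8.16, 8.37 and 9.69 at 24 h, a change of -0.88 ± 0.65 (SD, n = 3 pigs). The growth regulator MYC was 7.07, 8.01 and 7.71 at 2 h and 6.36, 7.87 and 6.87 at 24 h, a change of -0.57. Both were lower in every pig with overlapping groups. BTG2, an antiproliferative gene, was 8.82, 12.23 and 11.05 at 2 h and 8.76, 11.97 and 9.86 at 24 h, so that pig 3 held nearly all of its mean change of -0.50. JUN, the brightest gene of the list, had a change of -0.23, lower in every pig. EGR1, a zinc finger factor of the same class, ran the other way: it was 5.57, 8.08 and 7.57 at 2 h and 5.69, 8.70 and 7.85 at 24 h, higher in every pig by 0.34 in mean. KLF2 (0.14), FOSL1 (0.04) and KLF10 (0.04) were the other members with higher means. FOS, named after its values were seen, was 7.74, 12.46 and 12.13 at 2 h and 7.72, 12.53 and 11.27 at 24 h, lower in pig 3 and nearly level in the others. Pig 1 had low levels of ATF3, BTG2, FOS and EGR1 at both times, and the difference between pigs was larger than that between times for each.

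**Figure D3:**
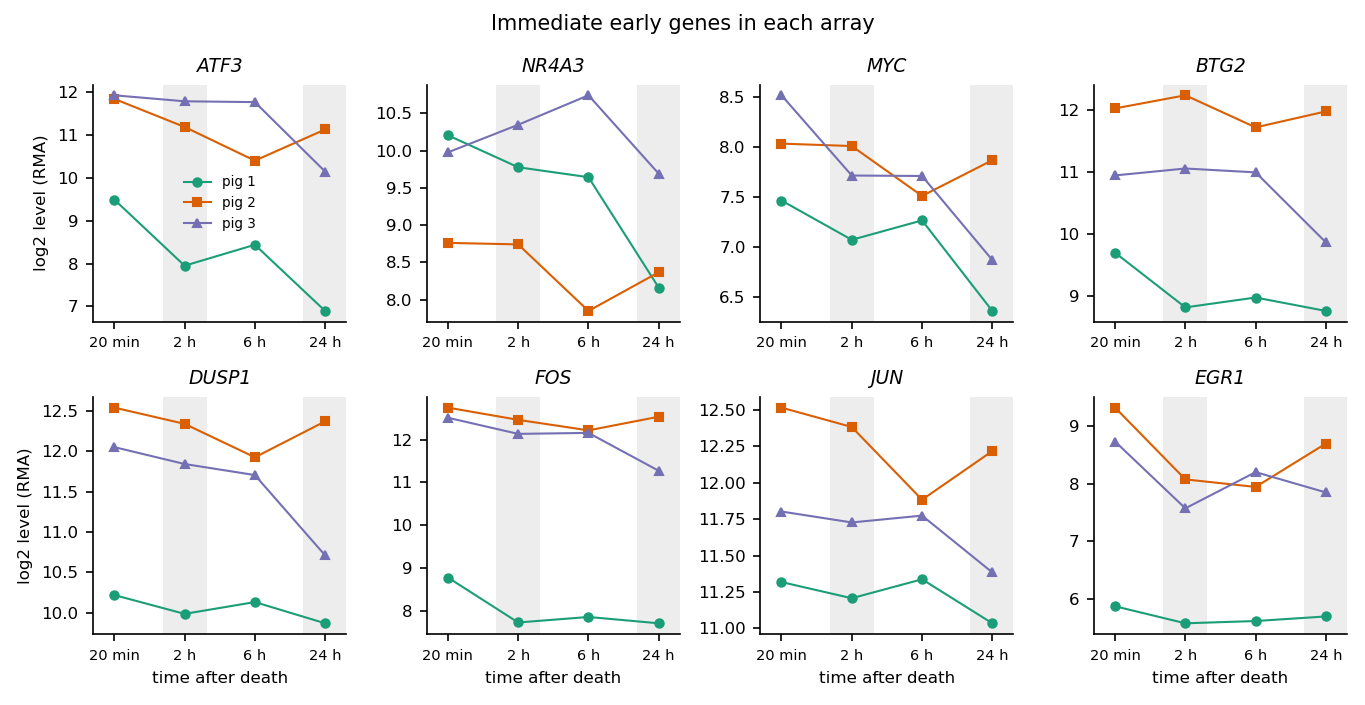
Log2 levels of immediate early genes (vertical axes) at the 4 times (horizontal axes), 1 line per pig, with 2 h and 24 h shaded. For ATF3 and BTG2 the span between the pigs at 2 h is wider than the step from 2 h to 24 h of any pig, and pig 3 has the largest step down in both.

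RNA integrity was read from control probe sets at the 3′ and 5′ ends of the same transcripts, where a larger difference stands for more loss of the 5′ end. From 2 h to 24 h the 3′ minus 5′ difference of EF1A changed by 0.30, -0.50 and 0.21 in pigs 1, 2 and 3, that of actin by 0.31, -0.54 and 0.15, and that of GAPDH by 0.06, -0.03 and 0.11. It was thus greater at 24 h in pigs 1 and 3 and smaller in pig 2. The 2 h array of pig 2 had the largest EF1A difference of all 12 arrays (1.11). Pigs 1 and 3 had 0.56 and 0.49 at 2 h. The actin difference of that pig 2 array (2.54) was also the largest of the 12, while that of GAPDH (-0.18) was not. DDX6, PSMB3 and PRKAB2, described below, had their highest value of the 6 arrays in it. The means did not differ by an exact sign-flip permutation test, two-sided (p = 1 for EF1A and actin and 0.5 for GAPDH, n = 3 pigs), in a design that cannot go below 0.25. Its direction by pig ran with the means of several lists, which were highest or closest to 0 in pig 2, among them the immediate early list (0.01) and the macrophage list (-0.12). Within pig 2 the changes of the 6 macrophage and complement genes were between -1.24 (C4BPA) and -0.68 (C1QA). The part of RNA integrity in these results was not tested.

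**Figure D4:**
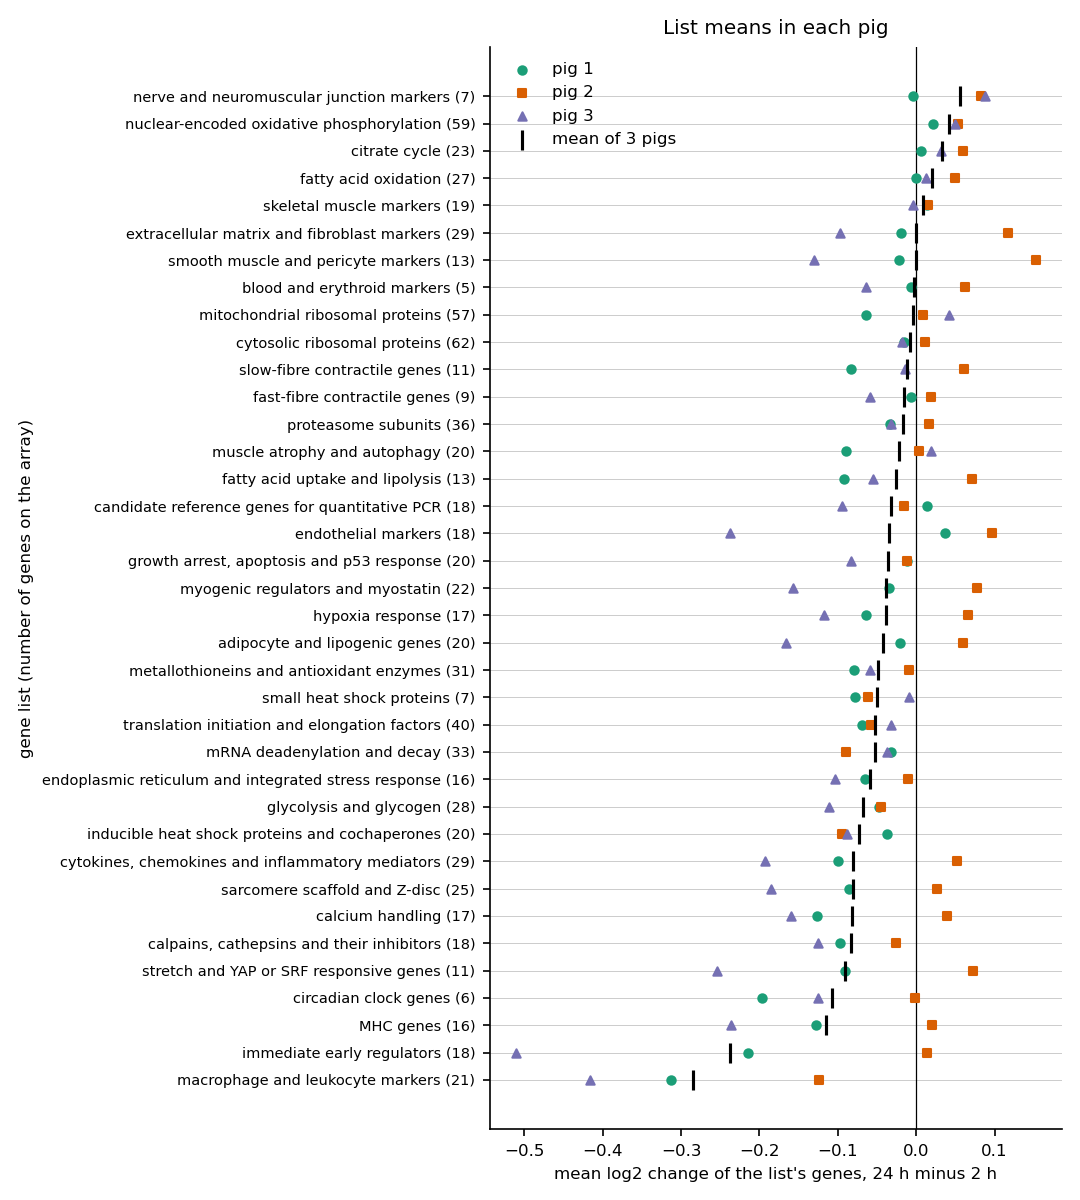
Mean log2 change from 2 h to 24 h (horizontal axis) of the genes of each list (vertical axis), 1 point per pig. The macrophage and immediate early lists lie furthest from 0, with pig 3 lowest in both (-0.42 and -0.51); most other lists lie within 0.2 of 0 in every pig.

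Genes of inflammation beyond the macrophage markers had small changes. Of 29 cytokines, chemokines and inflammatory mediators 21 had the lower mean, 5 of them in every pig, with a list mean of -0.08. PTX3, a soluble pattern recognition protein, was 4.75, 4.78 and 5.74 at 2 h and 4.64, 4.78 and 4.52 at 24 h, so that pig 3 alone carried most of its mean change of -0.44. CCL5, a T-cell chemokine, had a mean change of 0.24, and STAT3, the brightest gene of the list and the transducer of interleukin 6 signals, one of -0.14. CCL2, the monocyte chemokine, had a change of -0.37 with an unadjusted limma p of 0.00641 and was named after its value was seen. Of 16 MHC genes 13 had the lower mean, 2 of them in every pig. SLA-DMB, which loads peptide onto class II, had a mean change of -0.34, SLA-3, a class I gene, one of 0.14, and B2M, the light chain of class I, one of -0.17, lower in every pig. The mean of the MHC list was -0.13, 0.02 and -0.24 in the 3 pigs.

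The metallothioneins and antioxidant enzymes leaned to lower means. Of 31 genes, 19 had the lower mean, 10 of them in every pig, and 6 were lower at an unadjusted p under 0.05, namely MT1A, MT-2B, PRDX1, HMOX1, GPX1 and GCLM. MT-2B, a metallothionein that binds zinc and copper, was 7.08, 7.60 and 7.94 at 2 h and 6.82, 7.19 and 7.68 at 24 h, a change of -0.31 ± 0.09 (SD, n = 3 pigs). It was lower in every pig, and the groups overlapped. MT1A was 4.88, 4.91 and 4.88 at 2 h and 4.76, 4.50 and 4.58 at 24 h, without overlap. PRDX1, a peroxiredoxin that reduces hydrogen peroxide, was 9.42, 9.64 and 10.24 at 2 h and 9.26, 9.44 and 9.88 at 24 h, a change of -0.24. FTH1, the ferritin heavy chain and the brightest of the group, had a change of -0.05, and GSTA1, a glutathione transferase, had the highest (0.16, mixed). MT1A and PRDX1 were named after their values were seen.

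Heat shock and stress response genes had small changes, as most genes did. Of 20 inducible heat shock proteins and cochaperones 14 had the lower mean. Of the 20, 11 were lower in every pig, against 14.5% of all genes. The list mean was -0.04, -0.09 and -0.09 in the 3 pigs. The interval of every gene lay within 1.5-fold, as for 6541 of all 6765 genes. HSPA2, an HSP70 family member, was 8.60, 9.02 and 8.55 at 2 h and 8.52, 8.55 and 8.27 at 24 h, a change of -0.28 ± 0.19 (SD, n = 3 pigs). HSP70.2, the bright stress-inducible HSP70 gene, was 12.92, 13.35 and 13.39 at 2 h and 12.76, 13.27 and 12.98 at 24 h, lower in every pig, with a mean change of -0.22. DNAJB1, the HSP40 partner of HSP70, had a change of -0.23, and HSF2, a heat shock factor, one of -0.22. DNAJB6 had the highest change (0.18, mixed), followed by HSPD1 (0.07), HSF1 (0.07) and DNAJB4 (0.06), and HSP90AA1, the brightest, one of -0.06. The 7 small heat shock proteins lay between -0.16 (HSPB8) and 0.06 (HSPB7). Between them were HSPB1 (-0.12), HSPB2 (-0.08), the crystallin CRYAB (-0.07), HSPB6 (0.02) and HSPB3 (0.02).

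The other stress programmes held single genes with larger mean differences, mostly of 1 pig or of mixed direction. Of 16 genes of the endoplasmic reticulum and integrated stress response 11 had the lower mean. PPP1R15A, which reverses the block on translation initiation, was 8.40, 8.73 and 9.42 at 2 h and 8.27, 8.85 and 8.29 at 24 h, so that pig 3 alone carried its mean change of -0.38. ATF4, the central factor of that response, had a change of -0.05, and the chaperone HSP90B1 one of 0.03. Of 17 hypoxia genes 12 had the lower mean, 3 of them in every pig. BHLHE40, a hypoxia-induced repressor, had the lowest change (-0.32), ADM, the vasodilator adrenomedullin, the highest (0.25, higher in pigs 1 and 2 and lower in pig 3), and TXNIP, the brightest, one of -0.02. The interval of 14 of the 17 lay within 1.5-fold, against 6541 of all 6765 genes. Of 20 growth arrest and apoptosis genes 9 had the lower mean, BTG2 the lowest (-0.50). The interval of 17 of the 20 lay within 1.5-fold, to be read against the same share. GADD45G, a stress-induced growth arrest gene, was higher by 0.36, 0.27 and 0.32 in the 3 pigs, and CYCS, cytochrome c, by 0.25 in mean.

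Transcripts of mitochondrial energy supply were slightly higher in mean at 24 h. Of 59 nuclear-encoded genes of oxidative phosphorylation 46 had the higher mean, 15 of them in every pig, where 48.8% and 12.4% of all genes did. The groups did not overlap above for 5, and 0 had an unadjusted p under 0.05. The size was small, with list means of 0.02, 0.05 and 0.05 in the 3 pigs. The 95% interval of all 59 lay within 1.5-fold, as for 6541 of all 6765 genes. CYCS was 12.23, 12.43 and 12.74 at 2 h and 12.67, 12.46 and 13.01 at 24 h, the highest change of the list and higher in every pig with overlapping groups. ATP5A1, the alpha subunit of ATP synthase and the brightest member, had a mixed change of 0.06, and NDUFA13, a complex I subunit, the lowest (-0.17).

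Of 23 citrate cycle genes 17 had the higher mean, 6 of them in every pig. DLD, the dihydrolipoamide dehydrogenase shared by the pyruvate and oxoglutarate dehydrogenase complexes, was 11.64, 11.87 and 11.90 at 2 h and 11.87, 11.98 and 12.12 at 24 h, a change of 0.19 ± 0.07 (SD, n = 3 pigs). OGDH, the first enzyme of the oxoglutarate dehydrogenase complex, had a mixed change of -0.11 and SDHB, the brightest, one of 0.03. Of 27 fatty acid oxidation genes 19 had the higher mean, 6 of them in every pig. The highest were the thiolase ACAA2 (0.21), the medium-chain dehydrogenase ACADM (0.12), the acyl-CoA synthetase ACSL4 (0.11) and the isomerase ECI1 (0.10). The lowest were PPARGC1A, the coactivator of mitochondrial genes (-0.18), the nuclear receptor PPARA (-0.15), the short-chain dehydrogenase ACADS (-0.11) and the carnitine transferase CPT1A (-0.09). PPARGC1A was 11.92, 10.42 and 10.96 at 2 h and 11.46, 10.48 and 10.81 at 24 h, a mixed change. FABP4, the fatty acid binding protein of fat cells, differed by -0.55, 0.35 and -0.87 in the 3 pigs, while its muscle counterpart FABP3 had a mean change of 0.06. The hormone-sensitive lipase LIPE had 0.12, the fat-cell hormone LEP 0.21 and the transcription factor CEBPB -0.24.

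Glycolysis leaned the other way, by as little. Of 28 genes of glycolysis and glycogen use 22 had the lower mean, 8 of them in every pig, with list means of -0.05, -0.04 and -0.11. PRKAB2, a beta subunit of the energy sensor AMPK, was 8.98, 10.18 and 9.09 at 2 h and 8.78, 9.46 and 8.42 at 24 h. It was lower in every pig, and the change was -0.53 ± 0.29 (SD, n = 3 pigs; limma unadjusted p = 0.0039, adjusted 0.938). PRKAG3, the muscle gamma subunit of AMPK, had the highest change (0.08, mixed). GAPDH was 14.58, 14.51 and 14.53 at 2 h and 14.60, 14.54 and 14.51 at 24 h, a change of 0.01 with a 95% interval of -0.14 to 0.17.

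The contractile genes, which make up much of the muscle's message, had mean changes near 0. Their probe sets lie near the top of the scale, whose highest mean level was 14.81, and whether a change could show there was not tested. The 11 slow-fibre genes had a mean change of -0.01 and the 9 fast-fibre genes one of -0.02, and both list means turned sign when arrays were centred on the brightest 10% of probe sets. The slow light chain MYL2 had a change of 0.01, the fast heavy chain MYH2 one of -0.06, the fast troponin TNNC2 one of -0.01 and the fast calcium pump ATP2A1 one of 0.03. MYL3, a slow light chain, had the lowest change of the slow list (-0.14, mixed). The largest differences were in stress-responsive parts of the sarcomere. ANKRD1, a titin-bound ankyrin repeat protein induced by load, was 9.83, 12.82 and 12.80 at 2 h and 9.08, 12.90 and 11.77 at 24 h, lower in pigs 1 and 3 and slightly higher in pig 2. XIRP1, an actin-binding repair protein, was lower in every pig, with a mean change of -0.43. Of 25 sarcomere scaffold and Z-disc genes 17 had the lower mean, while titin (TTN) had 0.08 and FHL1 had 0.01. The cAMP-regulated phosphoprotein ARPP21, of the stretch list, had 0.21, and the mitochondrial creatine kinase CKMT2 had 0.09.

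Calcium handling and proteolysis are the processes most often tied to meat tenderness. Of 17 calcium handling genes 12 had the lower mean, 7 of them in every pig, and 3 without overlap. CALM3, a calmodulin gene, was 10.13, 10.40 and 10.17 at 2 h and 9.93, 10.03 and 9.63 at 24 h, without overlap. The change was -0.37 ± 0.17 (SD, n = 3 pigs; limma unadjusted p = 0.00195, adjusted 0.938). Sarcolipin (SLN), the brightest, had a change of -0.04, and the slow-fibre calsequestrin CASQ2 a mixed one of 0.13. Of 18 calpains, cathepsins and inhibitors 12 had the lower mean. CTSS, cathepsin S, a lysosomal protease of antigen-presenting cells, was 8.33, 8.09 and 8.24 at 2 h and 8.09, 7.76 and 7.40 at 24 h, without overlap, a change of -0.48 ± 0.32 (SD, n = 3 pigs). Differences of the calpains were small: the muscle calpain CAPN3 had a change of -0.10 and CAPN7 one of 0.07. CAPN1, the mu-calpain of meat ageing, had -0.06 and its inhibitor calpastatin (CAST) 0.02, both named after their values were seen.

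Ubiquitin ligases, autophagy genes and proteasome subunits gave no common direction. FBXO32, the ubiquitin ligase atrogin-1, was 13.26, 12.86 and 12.71 at 2 h and 13.35, 13.02 and 13.18 at 24 h, higher in every pig by 0.24 in mean. The autophagy gene ATG7 was lower in every pig (-0.21) and ubiquitin B (UBB) differed by -0.04. The list of 20 atrophy and autophagy genes had a mean of -0.02, which turned sign under centring on the brightest 10%. Of 36 proteasome subunits 21 had the lower mean; the list mean of -0.02 turned sign under centring and under repeated quantile normalisation. PSMB3, a core subunit, was 7.57, 8.90 and 8.01 at 2 h and 7.44, 8.08 and 7.65 at 24 h, lower in every pig, and its inhibitor PSMF1 had a change of 0.12, against -0.02 for the brightest member, PSMD11. Of 22 myogenic regulators 13 had the lower mean; ID1, which blocks myogenic factors, had -0.28, SIX4, a homeobox factor of muscle, 0.19 and MEF2A, the brightest, -0.14.

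Translation genes were close to level. Of 40 initiation and elongation factors 30 had the lower mean, 12 of them in every pig, with list means of -0.07, -0.06 and -0.03 in the 3 pigs. EIF4A1, the helicase of the cap-binding complex, had the lowest change (-0.24), EIF3I the highest (0.10) and TPT1, the translationally controlled tumour protein, one of 0.01. Of 62 cytosolic ribosomal proteins 40 had the lower mean, with a list mean of -0.01 that turned sign under centring on the brightest 10% and under quantile normalisation. The interval of all 62 lay within 1.5-fold, as for 6541 of all 6765 genes. RPS29, the brightest, had a change of 0.01, RPS24 the lowest (-0.13) and RPS15A the highest (0.17). Of 57 mitochondrial ribosomal proteins 29 had the higher mean, and the list mean of -0.00 turned sign under 3 scalings (cyclic loess, centring on the brightest 10% and quantile normalisation). Their range ran from MRPS23 (-0.24, lower in every pig) to MRPS36 (0.30, mixed), with MRPL15, the brightest, at -0.10.

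Genes of RNA decay had a small list mean (-0.05), with larger changes in single genes. Of 33 genes of deadenylation and decay 21 had the lower mean, 5 of them in every pig. DDX6, a helicase of decapping complexes, was 9.06, 10.63 and 9.58 at 2 h and 9.14, 9.50 and 8.99 at 24 h, lower in pigs 2 and 3 only. RNASE4, a secreted ribonuclease, was 9.76, 9.37 and 9.78 at 2 h and 9.87, 9.79 and 10.17 at 24 h. It was higher in every pig without overlap, a change of 0.31 ± 0.17 (SD, n = 3 pigs). TOB1, which recruits the deadenylase, had a change of -0.11. Of 6 clock genes, RORA, an activator of the clock gene BMAL1, was 8.62, 9.23 and 8.91 at 2 h and 8.36, 8.85 and 8.32 at 24 h, a change of -0.41 ± 0.17 (SD, n = 3 pigs; limma unadjusted p = 0.0049). DBP, a clock output factor, was higher without overlap (0.17), and PER1 had a change of 0.12.

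The other probe sets beyond 2-fold were SPP1 and 3 without a name. SPP1, which encodes osteopontin, was 5.20, 5.60 and 9.18 at 2 h and 5.21, 5.46 and 5.04 at 24 h. Only the 2 h array of pig 3 was high, and the mean change of -1.42 came from that array; SPP1 was named after its values were seen. The unnamed probe set Ssc.1203.1.S1_at was 4.46, 5.57 and 6.70 at 2 h and 3.18, 3.51 and 3.34 at 24 h, the lowest mean change of all (-2.23). It was lower in every pig, without overlap. The same probe set read 3.79, 8.07 and 9.48 at 20 min and 3.51, 3.40 and 5.53 at 6 h, a mean change of -2.97. It was thus already lower at 6 h than at 2 h in every pig, and the pigs differed widely at 20 min. Its 24 h values are dim, below the array medians. The unnamed Ssc.11004.1.S1_at was 8.62, 7.92 and 7.82 at 2 h and 7.34, 6.94 and 6.20 at 24 h, also lower in every pig and without overlap. The unnamed Ssc.670.1.S1_at had a change of -1.09, lower in every pig with overlapping groups.

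The remaining genes with lower means that the naming rule gave were often those of a minor probe set. CAV1, the coat protein of caveolae, had changes of -0.04, -0.36 and -0.78 at its probe sets from the brightest to the dimmest. RTN3, a reticulon of the endoplasmic reticulum, had -0.65 and its brightest probe set -0.28. MAP3K7, the kinase TAK1, had -0.67 and another probe set -0.24. SECISBP2L had -0.69, and its brightest probe set 0.09. Without the 2 h array of pig 2, the array with the largest EF1A 3′ minus 5′ difference at 2 h, the changes were -0.42 for MAP3K7 and -0.43 for SECISBP2L. SH3KBP1, an adaptor of receptor internalisation, was 8.54, 7.35 and 7.74 at 2 h and 8.04, 6.63 and 6.97 at 24 h, a change of -0.66 ± 0.14 (SD, n = 3 pigs), with -0.15 at another probe set. OCA2, a melanosomal membrane protein, was 6.55, 7.86 and 6.70 at 2 h and 6.12, 7.16 and 6.07 at 24 h. It was lower in every pig with overlapping groups, with a mean change of -0.58, and it had one of -0.92 from 20 min to 6 h.

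Higher means were smaller. FNDC1, a fibronectin domain protein, was 6.71, 5.65 and 6.49 at 2 h and 7.33, 6.44 and 6.84 at 24 h, higher in every pig, a change of 0.58 ± 0.22 (SD, n = 3 pigs). TPM2, the beta tropomyosin, was 7.91, 8.94 and 7.97 at 2 h and 8.73, 9.29 and 8.49 at 24 h at a minor probe set, a change of 0.57, while its 3 bright probe sets had 0.03, -0.01 and 0.00. LOC100621559 had the smallest unadjusted p of a probe set with a gene name (limma unadjusted p = 0.000203, limma adjusted p = 0.869) with a change of 0.68, and its brightest probe set had -0.10. STK11, the kinase LKB1 that activates AMPK, had 0.38 at 1 probe set and -0.20 at its brightest, where it was lower in every pig; without the 2 h array of pig 2 the 0.38 became 0.21. SETD3, RIPOR2, C9H1orf21, TAC3 and RAC2 had 0.43, 0.40, 0.38, 0.36 and 0.33, and -0.10 to 0.08 at their brightest probe sets. The hormone precursor GCG was 4.98, 4.87 and 4.93 at 2 h and 5.27, 5.26 and 5.29 at 24 h, higher without overlap by 0.35. OPRD1, the delta opioid receptor, was higher without overlap by 0.33, and had a mixed 0.15 at a dimmer probe set. The GCG and leading OPRD1 probe sets are dim, with means of 4.93 and 5.04 at 2 h, below the array medians. So are the named probe sets of TAC3 (3.56), RIPOR2 (4.19), RAC2 (4.35), LOC100621559 (4.66), SETD3 (4.78) and STK11 (5.38). Those of FNDC1 (6.29), TPM2 (8.27) and C9H1orf21 (8.29) lay above the array medians at 2 h.

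Dim probe sets leaned up and bright ones down. Over 5 equal bins of mean level from dim to bright, the median change was 0.016, 0.040, 0.013, -0.011 and -0.015. Probe sets with an unadjusted p under 0.05 divided into 126 higher and 51 lower in the dimmest bin, and into 33 higher and 161 lower in the brightest. In the bin next to the dimmest, where the named probe sets of GCG, OPRD1, LOC100621559, SETD3, RIPOR2 and RAC2 lie, 221 were higher and 87 lower.

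The comparison of 6 h with 20 min uses the other 6 arrays of the same pigs. It served to ask whether the changes of 24 h against 2 h were also seen over an interval that began earlier. Both intervals contain the time from 2 h to 6 h, so they do not separate early from late change. Across probe sets the changes of the 2 comparisons, which share no array, correlated with r = -0.031. Within pigs 1, 2 and 3 the r was 0.060, 0.153 and -0.028. The test of the difference between the intervals called 0 probe sets (percent called 0; limma, smallest adjusted p 0.387), with 1781 at an unadjusted p under 0.05. C1QC had a change of -0.14 from 20 min to 6 h and of -1.37 from 2 h to 24 h, and the difference had a limma adjusted p of 0.606. Without the 20 min array of pig 3 that test called 3, C1QC (9.14e-04), C1QA (0.0284) and Ssc.11004.1.S1_at (0.0119). The array was left out after the data were seen, and it enters this difference directly. Leaving it out moved the difference from -1.22 to -1.83 for C1QC and from -0.98 to -1.43 for C1QA. For Ssc.11004.1.S1_at it moved from -1.22 to -1.81. These 3 calls thus follow in part from the choice of array and are not separate support. The 2 h arrays themselves did not stand apart from those of 20 min in the fit of 12 arrays, which called 0 (percent called 0; limma, smallest adjusted p 0.473) with 1908 at an unadjusted p under 0.05, but they did for 29 probe sets when the 20 min array of pig 1 was left out, a setting chosen after the data were seen.

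Candidate reference genes for quantitative PCR were read from the same scaled values, on which a loss of all transcripts alike would not show. The 95% interval of all 18 lay within 1.5-fold, but so did that of 6541 of all 6765 genes. ACTG1 had a change of 0.02 ± 0.01 and GAPDH one of 0.01 ± 0.02 (SD, n = 3 pigs each). GAPDH had -0.20 at another bright probe set, with -0.14, 0.09 and -0.53 in the 3 pigs, and the ACTG1 and leading GAPDH probe sets lie near the top of the scale. ACTB had one of 0.01 ± 0.22 (SD, n = 3 pigs). SDHA, a complex II subunit, was 11.99, 12.01 and 12.07 at 2 h and 12.09, 12.17 and 12.19 at 24 h, higher in every pig without overlap, where 3.47% of all genes were. B2M had the lowest change (-0.17, lower in every pig). YWHAZ, a 14-3-3 protein, had -0.15 in mean but -0.05, 0.14 and -0.53 in the 3 pigs. ACTB and YWHAZ were named after their values were seen.

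**Figure D5:**
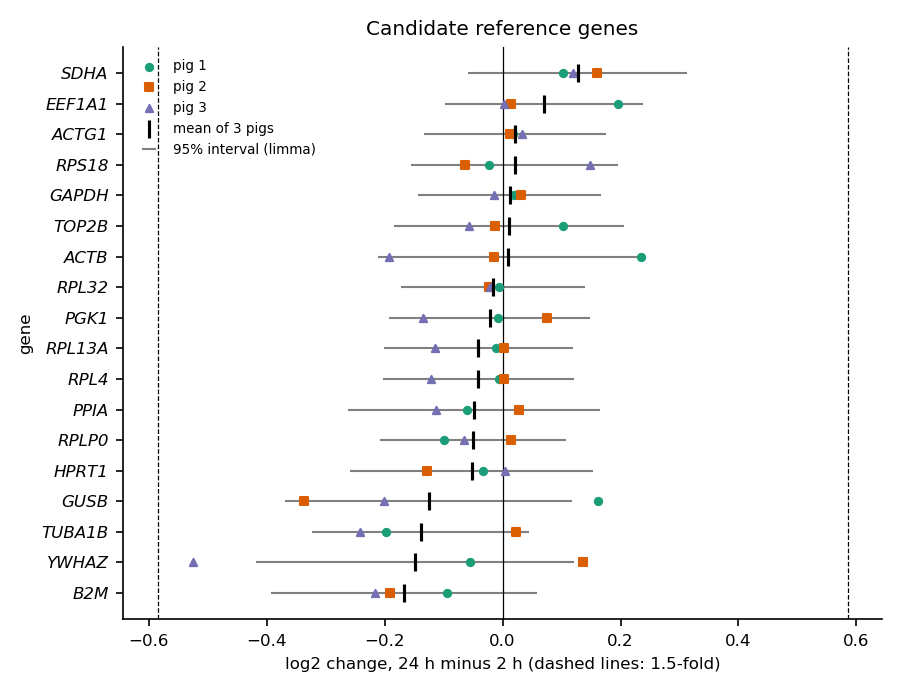
Log2 change from 2 h to 24 h of the candidate reference genes (1 row per gene), with the mean of the 3 pigs, its 95% interval and 1 point per pig. The intervals of all 18 genes lie within 1.5-fold, as do those of 6541 of all 6765 genes. The points of YWHAZ are among the most spread.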

How the data were processed

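Muscle RNA was hybridised to one-colour Affymetrix porcine arrays, and the authors deposited log2 intensities summarised by probe set. The submitters' processing notes name RMA and affy; their versions and parameters are not given in the sources here, nor is signal over background. Times and pig numbers came from the sample titles. Gene names came from the platform annotation of the table supplied: of 24123 probe sets, 10099 had 1 symbol, 198 several and 13826 none, and 9989 matched the Sscrofa11.1 RefSeq table by gene ID. After removal of 124 controls, 23999 probe sets were tested with limma 3.58.1 (R 4.3.3, statmod 1.5.0), in 1 model of 12 arrays with a term for each of 4 times and a fixed pig block (6 residual and 5.67 prior degrees of freedom, two-sided p, Benjamini-Hochberg adjustment, threshold 0.05), which was tested on simulated data. The design text says that portions came from the same pigs, and the arrays of 1 pig deviated together from their time means (r 0.409 to 0.656, 18 pairs). Portions of 3 pigs are the replicates, and their number limits the precision.

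Each gene of the 37 lists was represented by its brightest probe set. Members and lists were chosen with earlier results of these data known, so they were described and not tested. Genes were named by a rule. From the 100 genes of smallest p with the same sign in all 3 pigs it took the 12 highest and 12 lowest changes. From each list it took the highest, lowest and brightest member. In the immediate early, macrophage, fatty acid oxidation and both heat shock lists it took up to 4 highest and 4 lowest. A gene of the comparison that the rule gave is not reported here. The text marks genes named outside the rule, except the members of the antioxidant list at an unadjusted p under 0.05, which are all named. Alternatives were other blocks, scalings, priors, weights and filters, fewer arrays and each array or pig left out; leaving out single 20 min arrays was added after seeing the data.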

Additional observations from a re-analysis of the deposited data

How the results depend on the processing

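The count of 0 probe sets for 24 h against 2 h became 6 without the 20 min arrays and 1 in the fit of 6 arrays, and ranged from 0 to 5 when a pig or an array was left out (5 without the 20 min array of pig 3, 1 without pig 3). All of these had the lower mean at 24 h. Among listed genes the count of 0 became 3 and 1 in those fits, and ranged from 0 to 3 with a pig or array left out. The difference between 24 h against 2 h and 6 h against 20 min ranged from 0 to 3 calls, and 2 h against 20 min from 0 to 29. Under at least 1 alternative, 33 of 129 other genes named from lists and 17 of 37 list means changed direction. None of the 24 genes named for the comparison did, but the rule took only genes with the same sign in all 3 pigs. Their direction was thus largely fixed by the choice, and the counts cannot be compared. Without the replicate block, limma called 0 probe sets for 24 h against 2 h, with 524 at an unadjusted p under 0.05 against 1255; with pig as a random block it called 0, with 1065. That count ran from 524 to 1882 over the alternatives, the highest with array weights, and was 738 without pig 1 and 1838 without pig 2. Refitted on 1 probe set per gene alone, limma called 0, with 367. The share of higher probe sets among them was 45.5%, and became 29.6% without the dimmest 40%, 65.8% centred on the brightest 10%, 57.6% without the block and 37.7% after cyclic loess. Leaving out arrays moved it to 38.7% (no pig 2), 57.6% (no pig 3), 59.1% (pig 3 without its 2 h array) and 39.9% (pig 2 without its 24 h array). Of 37 list means 30 kept their sign under the 3 scalings and 7 did not.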
